A study of Mus musculus with 8 samples.

Results

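H3K4me3 regions that were called in both wild-type testis libraries and in a single library of the H3f3b null testes are described here. H3K4me3 (histone H3 trimethylated at lysine 4) was profiled by ChIP-seq on testis tissue from C57BL/6 mice labelled as adult. The mice were H3f3b WT/WT (wild type, WT) or H3f3b null (KO). Both groups are of the same strain and tissue, and the labels name no allele beyond the loss of H3f3b and no age beyond adult. The H3K4me3 libraries are WT66 and WT74 for the wild type and KO67 and KO73 for the nulls, 2 per genotype, each with 1 list of enriched regions. The 4 input libraries were not analysed here. The labels do not say whether libraries come from different animals.

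The members were found by merging the chromosome 1 to 19 regions of the 4 lists where they overlapped or touched. A member is a merged region with at least 1 bp in both WT lists and in exactly 1 of the KO lists. Merging gave 16000 regions, of which 12226 were in both WT lists and 1280 were members. KO73 alone held 1046 of the members, called KO73 members below, and KO67 alone held 234, called KO67 members. Of the 12226 regions, 9520 (77.9%) were in both KO lists and 1426 (11.7%) in neither. Presence and absence in these lists chose the members, so their number, lengths and ranks are given as a description with no test.

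H3K4me3 is deposited by SET1 and MLL methyltransferases and gathers around the transcription start sites of active genes, often at CpG-rich promoters. In germ cells it also marks poised promoters and, in meiosis, recombination hotspots set by PRDM9. H3.3, which H3f3b and H3f3a encode, is the H3 variant put into chromatin outside DNA replication. Histone H3 is largely exchanged and later removed as spermatids take up protamines, so the testis is a tissue in which H3 variants turn over widely. A whole testis mixes germ cells of many stages with somatic cells, and fewer cells of a type cannot here be told apart from less mark per cell. Regions are named by their mm9 coordinates, because genes and sequences of that build were not analysed here. The label of the tissue was therefore not checked against marker loci.

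The score that the authors' tool gave each region has no stated scale and was used only as a rank within its list. A percentile of 100 is the highest score of the list, and a merged region takes the best rank of its parts in that list. The lists held 14078 regions in WT66, 14551 in WT74, 10502 in KO67 and 12497 in KO73, sex chromosomes included. Scores below 100 lay on whole multiples of a step, 0.874 in WT66, 1.39 in WT74, 0.325 in KO67 and 1.45 in KO73. If a step is 1 sequenced tag, which no source states, the lowest score of a list stood for 62 tags in KO67 and 14 in KO73. If the lists were also scaled to 1 total, KO67 was the more deeply sequenced of the KO libraries, and it had the shorter list.

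The KO libraries held very different numbers of regions that the other lacked. Members made up 10.5% of the 12226 regions of both WT lists, with 8.56% in KO73 alone and 1.91% in KO67 alone. KO73 thus held 81.7% of the members (95% exact binomial interval 79.5 to 83.8, which covers counting error only), or 4.47 times as many as KO67. With the genotypes exchanged, 201 of 9772 regions of both KO lists (2.06%) were in exactly 1 WT list. Of these, 119 (1.22% of the 9772) were in WT66 and 82 (0.839%) in WT74. The WT lists therefore divided such regions 59.2% to WT66 (52.1 to 66.1).

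KO73 had the longer of the KO lists, with 12497 regions against 10502. The WT lists were nearer to each other in length, with 14078 regions in WT66 and 14551 in WT74, and WT66 held more of such regions. The pairs of lists are thus unlike, and the part of list length in either was not tested. In the KO73 list, 563 of the 1046 KO73 members (53.8%) ranked within the first 10502 regions, the length of the KO67 list (ties included), and 483 ranked beyond it. When all 4 lists were held to 10502 regions by score, with ties taken in order of position, 251 regions were in KO73 alone and 252 in KO67 alone. All 251 were among the 1046 members, which was largely set in advance, since the KO67 list lost no region at that length. Of the 234 KO67 members, 100 stayed as such. With the KO73 list alone held to that length, the numbers were 548 and 623. Lists of 1 length bring such a pair of numbers towards each other by construction, so these counts do not show what set the larger number in KO73.

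**Figure D1:**
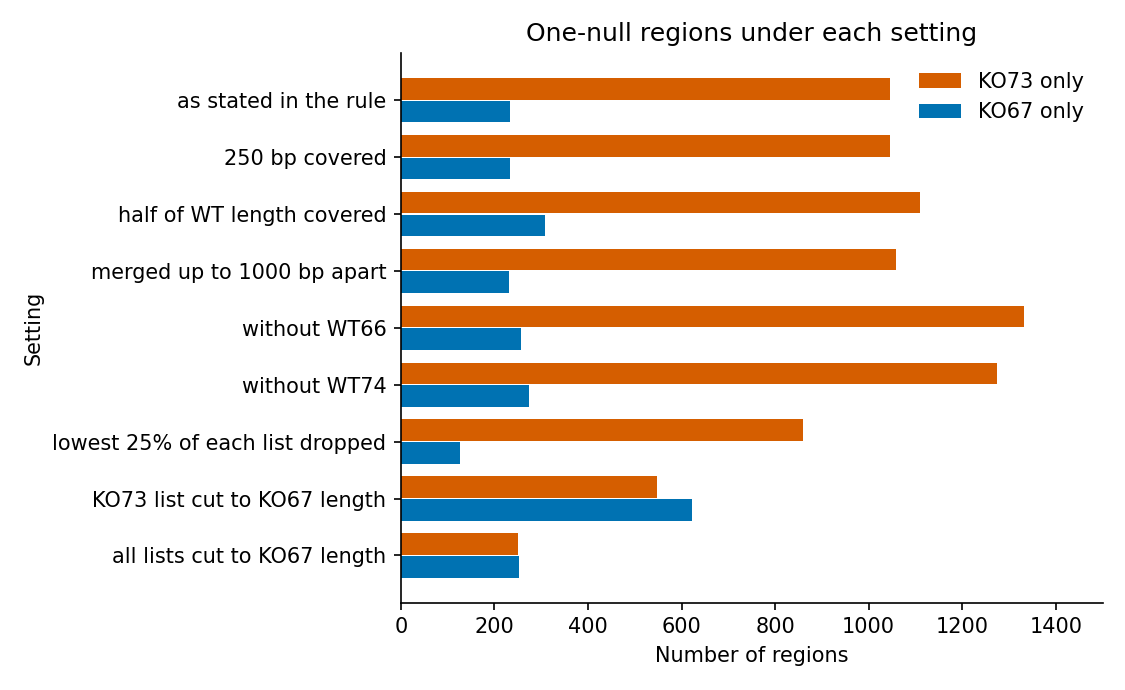
Number of regions of both WT lists found in KO73 alone (orange) or in KO67 alone (blue), on the x axis, under the rule and 8 other settings on the y axis. KO73 leads by 1046 to 234 under the rule, and the numbers are 251 and 252 when every list is held to the length of the KO67 list. Equal lengths bring such numbers together by construction.

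In the WT testes the members were weak and short regions, and the KO73 and KO67 members looked much alike there. The median WT66 rank was at percentile 29.5 for KO73 members and 29.0 for KO67 members. In WT74 it was at percentile 29.7 and 27.6. Regions of both KO lists had medians of 65.1 and 65.8 in the WT lists, and regions of neither KO list 21.2 and 25.6. Members thus lay between the regions kept in both KO libraries and those absent from both.

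The same order held for length. KO73 members covered a median of 1041.5 bp in WT66 (quartiles 707.5 to 1643.5 bp) and 938 bp in WT74 (649 to 1618 bp). KO67 members covered 1039.5 bp (765 to 1445 bp) and 884.5 bp (654 to 1255.5 bp). Regions of both KO lists had medians of 1654 and 1539 bp, and those of neither KO list 856 and 855.5 bp. The quartile ranges of the members overlapped those of both other classes.

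**Figure D2:**
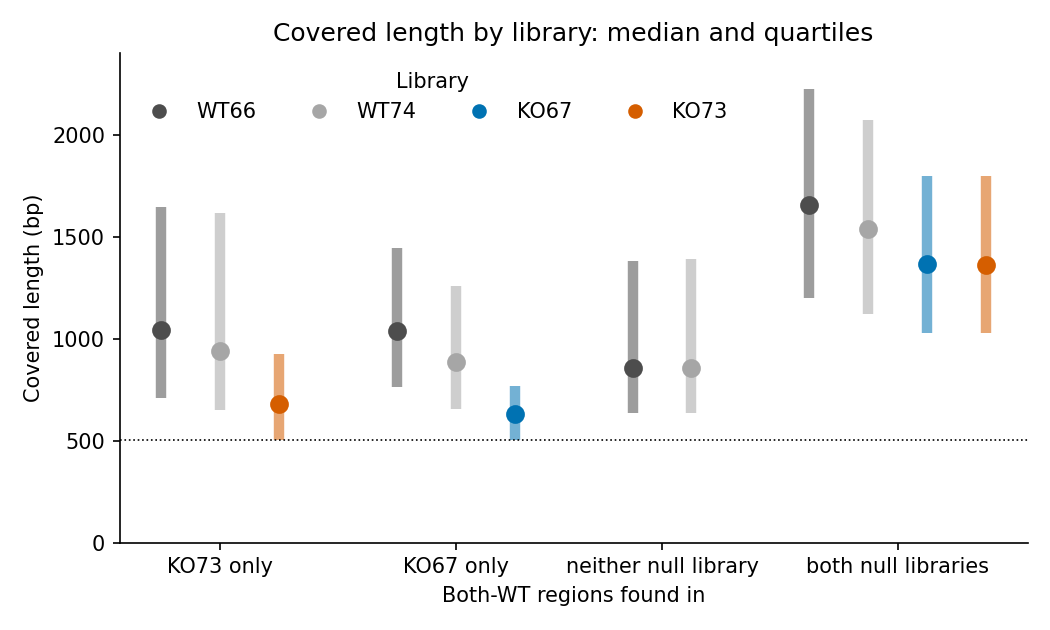
Covered length in bp on the y axis for regions of both WT lists, grouped on the x axis by the KO lists that held them. Dots are medians, bars run from the lower to the upper quartile over regions, and the dotted line is the narrowest region of any list, 501 bp. Members have WT medians from 884.5 to 1041.5 bp, and their KO medians are 678.5 and 632 bp.

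In the KO library that held them, the members sat near the bottom of the list. KO73 members had a median rank at percentile 16.1 of the KO73 list (quartiles 8.92 to 26.8), and 71.2% lay below its 25th percentile. KO67 members had a median at percentile 8.43 of the KO67 list (4.29 to 15.1), and 94.0% lay below its 25th percentile. Among regions of both KO lists, 905 of 9520 (9.51%) lay below that percentile in KO73 and 1811 of 9520 in KO67. The score was under 2 times the lowest score of the list for 73.5% of KO73 members and 91.0% of KO67 members. Of the regions of both KO lists, 979 (10.3%) had such a score in KO73 and 1606 (16.9%) in KO67. Low ranks and scores were thus more common in KO67 than in KO73 among those shared regions too.

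The median member of the KO73 list had a score of 29 and that of the KO67 list a score of 26. On the reading of a step as 1 tag, these were 20 and 80 tags, with exact 95% Poisson intervals of 12.2 to 30.9 and 63.4 to 99.6. The lowest scores, 14 and 62 tags, lie inside and just outside these intervals. A member had to reach the lowest score of its list to be called, so closeness to that score is in part set by the rule. An interval from fewer tags is also wider for its size. Whether counting error set which regions were called was not tested.

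**Figure D3:**
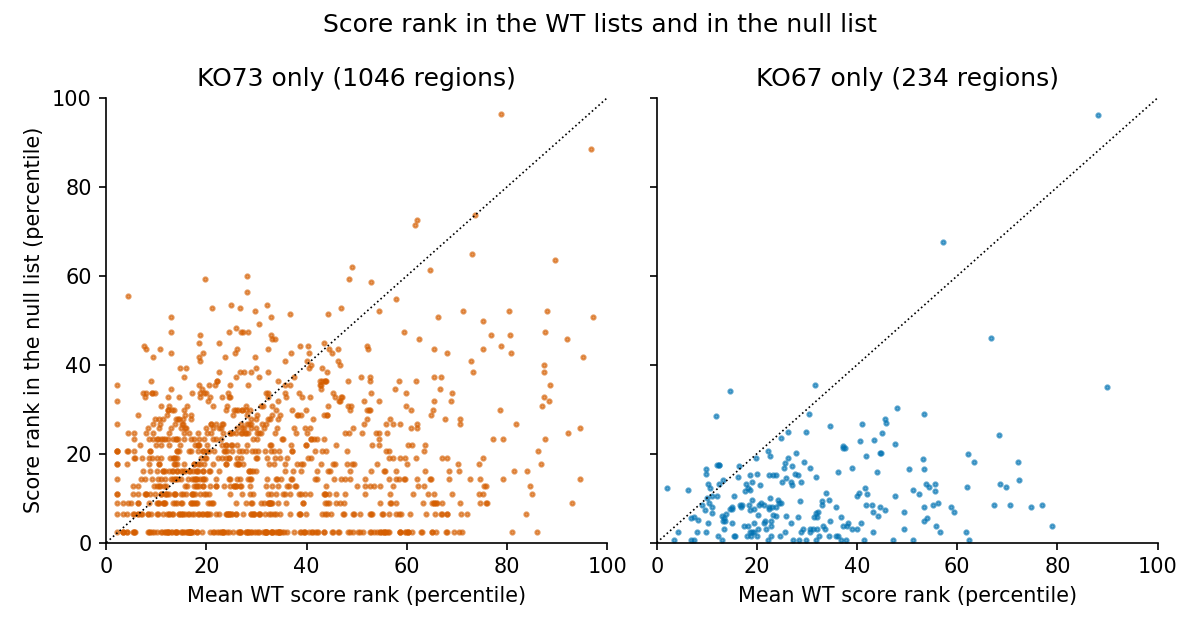
Percentile of the score in the KO list that held the member (y axis) against the mean of its WT66 and WT74 percentiles (x axis), 1 point per region, for KO73 members on the left and KO67 members on the right. Most points lie low on the y axis and below the dotted line of equal percentile, and 32 KO73 members and 2 KO67 members rank above the 50th percentile of their KO list.

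Most members were narrower in the KO library that held them than in either WT library. The KO73 length was below both WT lengths in 597 of the 1046 KO73 members (57.1%), between them in 266 and above both in 183 (17.5%). The KO67 length was below both in 153 of 234 (65.4%) and above both in 18 (7.69%). For the 9520 regions of both KO lists, KO73 was below both WT values in 64.4% and above in 13.2%, and KO67 in 60.2% and 12.5%. The median log2 ratio of the KO length to the geometric mean of the WT lengths was -0.41 in KO73 members and -0.51 in KO67 members, against -0.20 and -0.16 in those shared regions. The narrowest width of 501 bp was the KO length of 313 KO73 members (29.9%) and 85 KO67 members (36.3%), so many of these lengths could not be smaller.

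In most members the whole KO call lay where at least 1 WT library had a call. This held for 670 of the KO73 members (64.1%) and 180 of the KO67 members (76.9%), and in the rest the KO call reached beyond. Merging joins only calls that overlap or touch, so contact between the KO call and WT coverage was set by the rule. A short KO call also lies more easily within a longer WT call. These shares were not computed for regions of both KO lists, so they are not shown to be particular to the members. It was wholly inside the calls of both WT libraries in 299 KO73 members (28.6%) and 92 KO67 members (39.3%). The centre of the KO call was a median of 139 bp from the centre of the WT span in KO73 members and 94 bp in KO67 members. Coverage shared by both WT lists was not touched by the KO call in 28 KO73 members and 4 KO67 members.

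Few members had a call of the other KO library close by, and the same was true of other regions of both WT lists. The nearest KO67 region lay a median of 50489.5 bp from a KO73 member, and 7 of 1046 members (0.669%) had one within 1000 bp. The nearest KO73 region lay a median of 36846.5 bp from a KO67 member, with 4 of 234 (1.71%) within 1000 bp. Among regions of both KO lists, 0.431% had another KO67 region and 0.662% another KO73 region within that distance. The medians for these regions were 35793.5 bp to KO67 and 31857.5 bp to KO73, shorter than for the members. For regions of neither KO list the medians were 52460.5 bp to KO67 and 40163.5 bp to KO73. Of these, 0.421% had a KO67 region and 1.96% a KO73 region within 1000 bp. Merging regions up to 1000 bp apart moved 11 KO73 members and 4 KO67 members to the class found in both KO lists.

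The share of regions that were members fell with their WT rank. The regions of both WT lists were put in 10 bins of equal number by the mean of their WT percentiles. KO73 members made up 26.2% of the lowest bin, 6.79% of the fifth and 0.654% of the highest. KO67 members made up 5.31%, 1.72% and 0% of these bins, and regions of neither KO list 44.0%, 5.81% and 0%. From the fifth bin upward, KO73 members outnumbered the regions absent from both KO lists, with 66 against 38 in the sixth bin and 17 against 3 in the ninth. The KO73 part of the members stayed between 78.7% and 100% in all bins.

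**Figure D4:**
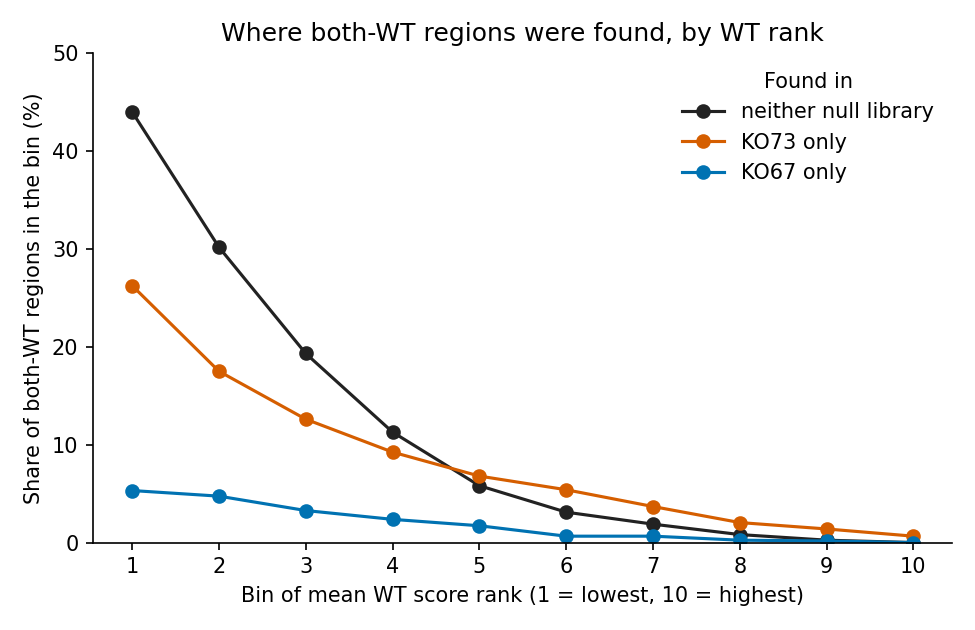
Share of regions of both WT lists (y axis, percent) found in KO73 alone, KO67 alone or neither KO list, in 10 bins of about 1222 regions by mean WT rank (x axis, 1 lowest). The share absent from both KO lists drops from 44.0% to 0%, faster than that of KO73 members, which goes from 26.2% to 0.654%.

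By WT length, the KO73 share did not go on falling beyond the short regions, while the KO67 share did, on small counts. Below 1000 bp in the narrower WT library, 16.5% of 3843 regions were KO73 members and 3.93% KO67 members. At 3000 bp or more the shares were 5.33% and 0.421% of 713 regions. From 1000 bp upward, the KO73 share was 4.80%, 5.05% and 5.33% over bins of 1000 to 2000 bp, 2000 to 3000 bp and 3000 bp or more. Over the same bins the KO67 share went from 1.18% (68 of 5748) to 0.624% (12 of 1922) to 0.421% (3 of 713). The last step of the KO67 share rests on few regions, and no interval was computed for these bins. The share absent from both KO lists went from 5.06% to 3.64% to 1.68%.

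Among the broad WT domains, those of at least 3000 bp in both WT lists, 38 were KO73 members and 3 were KO67 members. All 41 were narrower in the KO library that held them than in either WT library. A limit on the WT lengths alone favours a narrower KO length. The 660 regions of both KO lists that pass the same limit were not compared here, so the narrowing is not shown to be particular to the members. The 38 had median lengths of 4034 bp in WT66 and 3840.5 bp in WT74, and 1240 bp in KO73 (501 to 3124 bp), a median of 32.1% of the smaller WT length. What was left in KO73 was the narrowest width in 7 of them. In KO67 the 3 domains kept 501 to 665 bp.

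The KO73 members that ranked highest in both WT lists were such broad domains. The first, at chr16:32493308-32500291, covered 6436 bp in WT66 and 5735 bp in WT74 and ranked at percentiles 98.1 and 96.3. KO73 covered 2520 bp of it, at percentile 50.7, and KO67 had no call. It was also the member with the largest smaller WT length. At chr4:145650547-145654494, lengths of 3605 and 3874 bp in WT (percentiles 94.5 and 99.1) stood beside 3124 bp in KO73 (percentile 88.6). This region kept 86.7% of its smaller WT length and yet had no call in KO67.

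The other 3 of the 5 highest in WT were reduced to a short stretch in KO73. The region at chr12:88072217-88077386 covered 4863 and 4422 bp in WT and 808 bp in KO73. That at chr15:82679973-82686750 covered 5911 and 5721 bp in WT and 727 bp in KO73. At chr6:139988453-139993674, 5222 and 4804 bp in WT stood against 501 bp in KO73, which is 10.4% of the smaller WT length. These regions ranked from percentile 92.2 to 95.9 in the WT lists and at 25.7, 14.4 and 8.92 in KO73. All 3 thus ranked far lower in KO73 than in WT, and KO67 had no call.

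By WT length, the regions at chr16:59552583-59558875 and at chr14:69787797-69793581 came next. The former covered 5744 and 5655 bp in WT and 750 bp in KO73. The latter covered 5095 and 5675 bp in WT and 795 bp in KO73. KO73 kept 13.3% and 15.6% of their smaller WT lengths. In the highest of the 10 WT rank bins there were 8 members, all of KO73, with 501 to 3124 bp there and each below both of its WT lengths.

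The 5 KO67 members that ranked highest in WT covered 2542 to 3662 bp in WT66, and the 5 such KO73 members 3605 to 6436 bp. The former were picked from 234 regions and the latter from 1046, and a larger set tends to reach higher extremes. Over all members the WT66 medians were 1039.5 bp for KO67 members and 1041.5 bp for KO73 members. The first of the KO67 members, at chr1:26742899-26745478, covered 2542 and 2253 bp in WT (percentiles 89.3 and 90.6) and 501 bp in KO67 (percentile 35.0). The region at chr5:15159905-15162982 stood apart, with 3078 and 2817 bp in WT and 2286 bp in KO67. Its percentile was 97.3 in WT66, 79.0 in WT74 and 96.3 in KO67, so it was near the top of the KO67 list and without a call in KO73.

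The remaining KO67 members of this kind were short in KO67. At chr13:30640323-30643894, 3546 and 3503 bp in WT stood beside 665 bp in KO67. At chr2:32475745-32479328 the lengths were 3394 and 3484 bp in WT and 501 bp in KO67, and at chr3:154370655-154374339 they were 3662 and 3358 bp and 639 bp. The fifth by WT length, at chr15:38148318-38151337, covered 3020 and 2807 bp in WT and 636 bp in KO67. In these 4 regions the KO67 percentile was from 3.72 to 8.43, while the WT percentiles ran from 70.5 to 84.3.

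A small number of members ranked high in their KO list. Above percentile 50 of the KO73 list were 32 KO73 members (3.06%), against 64.1% of the regions of both KO lists. Of the 32, 14 were wider in KO73 than in both WT libraries and 10 were narrower. The chromosome 6 series described below gave 7 of the 32. The highest, at chr6:47702647-47704563, covered 1018 and 1309 bp in WT and 1917 bp in KO73, at percentile 96.4. Of KO67 members, 2 (0.855%) were above percentile 50 of the KO67 list, against 54.7% of the regions of both KO lists. The 2 members were the region on chromosome 5 described above and a region at chr14:44747048-44749423. The latter had 1828 and 1918 bp in WT and 2313 bp in KO67 (percentile 67.5). The third in the KO67 list, at chr8:74379383-74381608, covered 2037 and 1988 bp in WT and 1696 bp in KO67 (percentile 46.1).

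Some KO73 members were weak in WT and stronger in KO73. The KO73 percentile was above both WT percentiles in 206 of 1046 KO73 members (19.7%) and below both in 647 (61.9%). Among the 9520 regions of both KO lists, it was above both in 3123 (32.8%) and below both in 4280 (45.0%). A higher rank in KO73 was thus less common in the members than in those shared regions. The KO67 percentile was above both WT percentiles in 6 of 234 KO67 members (2.56%) and below both in 192 (82.1%). In the shared regions it was above both in 14.2% and below both in 65.7%. The examples below were chosen after their values had been seen, as the 3 with the largest ratio of KO73 to the larger WT length. At chr10:12587906-12589571, both WT libraries had the narrowest width of 501 bp and KO73 had 1666 bp. The same held at chr9:58670210-58671701, with 1492 bp in KO73. At chr2:5634458-5636165 the lengths were 501 and 662 bp in WT and 1708 bp in KO73. In these regions KO73 exceeded both WT libraries in length and KO67 had no call. The largest such ratio in a KO67 member was 1.58, at chr14:118950809-118951617, with 501 bp in both WT libraries and 794 bp in KO67. It was picked from 234 regions and the KO73 examples from 1046, and a larger set tends to reach higher extremes.

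A stretch of chromosome 6 held the longest run of members. The run was of 5 neighbouring regions of both WT lists, all found in KO73 and not in KO67, from 47609138 to 47627789. It lay in a series of 18 regions of both WT lists from 47600755 to 47729266, which was singled out after these values had been seen. They formed 2 blocks of 9 that were 53427 bp apart. Within the first block the centres of neighbouring regions were 4143 to 4480 bp apart, and over both blocks the median spacing was 4349.75 bp (4143 to 6379.5 bp). Whether the regions share a repeated sequence was not tested, and the handling of reads that match several places is not given in the sources used.

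Of the 18 regions, 9 were KO73 members, 1 was a KO67 member and 8 were in both KO lists. The first block held 7 of the KO73 members. The series was of middle to high rank in WT66, WT74 and KO73, with median percentiles of 64.5, 68.9 and 70.3. In KO67, the 9 regions found had a median percentile of 25.4 (21.3 to 67.3), and 4 of them had the narrowest width. Lengths were 659 to 1338 bp in WT66, 778 to 1383 bp in WT74, 501 to 1917 bp in KO73 and 501 to 894 bp in KO67. In all 9 regions that KO67 held, its percentile and its length were below those of both WT libraries. In the 17 regions that KO73 held, its length was below both WT lengths in 7 and above both in 7. The series gave 7 of the 32 KO73 members above percentile 50, and without it the totals were 1037 and 233.

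**Figure D5:**
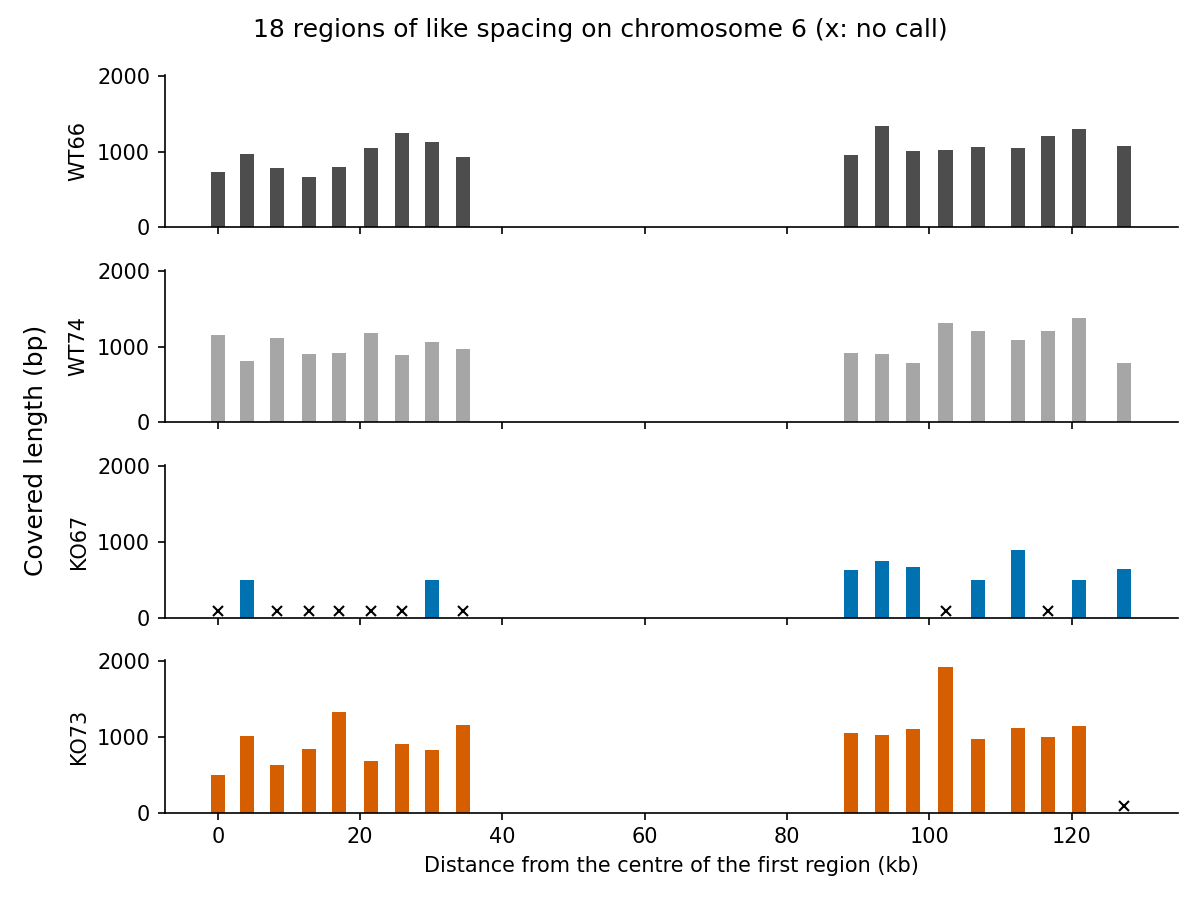
Covered length in bp (y axis, 1 panel per library) of the 18 regions on chromosome 6 against the distance in kb of their centres from that of the first (x axis). Crosses mark regions without a call. WT66 and WT74 have all 18, KO73 has 17 and KO67 has 9, with 2 of 9 in the first block.

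Members were otherwise spread over all autosomes and were mostly single. Over the 19 autosomes the KO73 share of the regions of both WT lists ran from 7.35% on chromosome 17 to 10.4% on chromosome 12. The 95% exact intervals of these extremes, 5.39 to 9.74 and 7.78 to 13.6, overlapped. The KO67 share ran from 0.941% on chromosome 16 to 3.17% on chromosome 18, with intervals of 0.257 to 2.39 and 1.59 to 5.60. The share in neither KO list had a wider range, from 7.14% on chromosome 19 to 25.6% on chromosome 14. On chromosome 14 the KO73 and KO67 shares were 9.68% and 2.69%. Intervals cover counting error only and treat regions as independent.

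Of the KO73 members, 209 of 1046 had a neighbour of the same class among the regions of both WT lists, and the others stood alone. Such a neighbour was found for 8 of 234 KO67 members (3.42%) and 460 of 1426 regions of neither KO list (32.3%). For regions of both KO lists it was 9113 of 9520 (95.7%). A more common class has more such neighbours by its number alone. KO73 members, KO67 members, regions of neither and regions of both were 8.56%, 1.91%, 11.7% and 77.9% of the regions. Whether members lay side by side more often than these shares would give was not tested. After the run of 5 on chromosome 6 came 2 runs of 4 KO73 members. They spanned 1381069 bp at chr17:68352823-69733891 and 2670098 bp at chr15:60654482-63324579.

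In windows of 5 Mb, members were found in 411 of the 499 windows that held a region of both WT lists, with a median of 2 and a maximum of 15. The maximum was reached on chromosome 6 from 45 to 50 Mb (14 in KO73, 1 in KO67), where the series above lies, and on chromosome 14 from 40 to 45 Mb (13 and 2). Members were 30.6% of 49 regions of both WT lists in the former window and 26.3% of 57 in the latter. Over all such regions they were 10.5%. On chromosome 14, 33 of the 57 regions of both WT lists in the window were in neither KO list and 9 were in both. The 13 KO73 members there had median lengths of 1726 and 1615 bp in WT and 501 bp in KO73. Their median percentile was 47.8 and 49.9 in WT and 10.9 in KO73, unlike those of the chromosome 6 window, with medians of 58.6 and 64.2 in WT and 51.4 in KO73.

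The next windows held fewer members. That on chromosome 3 from 85 to 90 Mb held 13 of 70 regions of both WT lists (18.6%). That on chromosome 19 from 5 to 10 Mb held 12 of 103 (11.7%). Chromosome 5 from 135 to 140 Mb held 11 of 81 (13.6%), and chromosome 15 from 75 to 80 Mb held 11 of 95 (11.6%). The shares on chromosomes 19 and 15 were near the 10.5% over all regions of both WT lists. In these 4 windows the median percentile of the KO73 members in the KO73 list was from 10.9 to 19.1, as low as in the chromosome 14 window or somewhat higher. In WT66 it was from 20.8 to 27.5 and in WT74 from 9.18 to 41.0, below the medians of both windows above.

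The WT libraries differed in rank more for members than for regions of both KO lists. The median absolute difference between the WT66 and WT74 percentiles was 8.34 points in KO73 members and 9.24 points in KO67 members. It was 4.54 points in regions of both KO lists and 11.1 points in regions of neither. A difference of over 25 points was seen in 9.18% of KO73 members and 7.69% of KO67 members. It was seen in 1.48% of regions of both KO lists and 14.6% of regions of neither. The classes were not matched by WT rank, which was higher in regions of both KO lists than in members.

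At the edge of the rule lay members whose KO call met the WT coverage by little. The smallest overlap was 106 bp, at chr4:154242227-154246348, with 3699 and 3166 bp in WT and 501 bp in KO73. The next were 171 bp at chr8:123796492-123798086 and 200 bp at chr4:126527594-126529331. Just outside the rule, 477 of the 9520 regions of both KO lists (5.01%) had the narrowest width in a KO library. The first of them in genome order, at chr1:16678221-16679186, covered 758 and 645 bp in WT, 906 bp in KO67 and 501 bp in KO73. Its KO73 score of 20.3 was the lowest of that list. At chr1:23389309-23389990 the lengths were 501 bp in both WT libraries and KO67 and 682 bp in KO73, and at chr1:43148591-43150015 they were 1422 and 1277 bp in WT, 501 bp in KO67 and 650 bp in KO73.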

How the data were processed

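H3K4me3 ChIP-seq of 4 testis libraries was used, 2 per genotype. Bowtie, HOMER and the mm9 build are named per the submitters' processing notes. Tool versions, settings, filters and any role for input reads: not given in the sources used here. Deposited by the authors were BED lists, 1 per library, with the authors' score per region, of no stated scale. The absolute depth is unknown, which leaves the precision of each call unknown.

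Starts were converted to count from 1. Chromosomes 1 to 19 were merged as the rule says, and bedtools merge gave the same 16000 regions. Percentile ranks were taken over each whole list. A library's covered length in a merged region is the sum of its calls there. Shares have 95% exact (Clopper-Pearson) intervals from scipy 1.17.1. The merging and classing were tested on simulated lists. No p-value was computed, since the rule used the presence of calls in these lists.

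Named regions were, per subset, the 5 with the largest smaller WT rank, the 5 with the largest smaller WT length and the 3 highest in the KO list. Over both subsets together, the 3 members just inside the rule were named, all of them KO73 members. Also named were 3 regions just outside the rule and the 5 Mb windows with most members (the fifth place was tied). Gene lists and sequence content were to be examined only with mm9 positions at hand and were not analysed here. The members and lists were chosen with earlier results of these data known.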

Additional observations from a re-analysis of the deposited data

How the results depend on the processing

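Of 7 planned and 2 later settings, 2 gave both KO lists 1 length. Equal lengths bring the KO73 and KO67 numbers together by construction, so these 2 settings do not test the balance between the libraries. The KO73 share of members, 81.7%, was 49.9% in lists of equal length (251 and 252 regions). It was 46.8% with the KO73 list alone held to the KO67 length (548 and 623). It was 78.3% where 50% of the smaller WT length had to be covered and 87.1% with regions below percentile 25 dropped, where KO73 alone held 860 and KO67 alone 127, of which 169 and 11 were members under the rule. With 1 WT library left out, the numbers ran from 1274 to 1333 for KO73 and from 257 to 274 for KO67, and the share from 82.3% to 83.8%. With a KO library left out the rule cannot be applied. Median lengths and ranks were recomputed under 3 settings: all 12 moved in lists of equal length (for KO73 members, KO73 length 983 bp and percentile 29.8) and 0 of 12 with merging up to 1000 bp apart. The setting of 250 bp could change nothing, since no called region is under 501 bp. Leaving out the chromosome 6 series and holding the KO73 list to the KO67 length were chosen after seeing the data. No paired analysis was possible because WT and KO libraries share no replicate number. Depth is known only as score steps, and its part in missing calls was not tested.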

Other observations

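On the X chromosome, which was outside the rule, 45 of 325 regions of both WT lists were in KO73 and not in KO67 (13.8%), and 8 were in KO67 and not in KO73 (2.46%). On the Y chromosome there were 9 regions of both WT lists, of which 6 were in both KO lists, 3 in neither and 0 in exactly 1.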
